A study of Mus musculus with 8 samples.

Results

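A set of 8 genes of immune checkpoint and costimulatory signalling was read in primary cultured mouse microglia with and without IgG. They were chosen by gene symbol, with earlier results of these data known, and are 8 of the 55385 genes in the count table. Cd274 (PD-L1), Pdcd1lg2 (PD-L2), Cd80 and Cd86 encode ligands of the B7 family. Lgals9 encodes the secreted lectin galectin-9, Havcr2 encodes its receptor TIM-3, Vsir encodes VISTA and Lag3 encodes the inhibitory receptor LAG-3. The libraries came from wild-type microglia of the neocortex and hippocampus of newborn mice, grown from pooled brains in medium with fetal bovine serum and detached by shaking. There were 4 control libraries, which the labels call untreated and the methods describe as given PBS, and 4 libraries from cells given 10 µg/ml IgG for 24 h at DIV15. A control and an IgG library of one number carry the same date in the labels, which do not say what the date marks. They were taken as 4 pairs, and p-values measure the spread between these pairs.

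A T cell that meets its antigen needs a second signal from the presenting cell, which CD80 and CD86 give through CD28 and withhold when CTLA-4 takes them up instead. PD-L1 and PD-L2 act the other way, binding PD-1 on the T cell and damping its response, and the gene of PD-L1 is a well-known target of interferon signalling. Galectin-9, TIM-3, VISTA and LAG-3 belong to further inhibitory axes, and microglia, the resident macrophages of the brain, are known to carry several of these molecules.

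In brief, Lgals9 was the member that moved most, 1.5-fold higher with IgG (95% interval 1.29 to 1.74) and higher in 4 of 4 pairs. Cd86 was 1.33-fold higher (1.08 to 1.63) and Cd274 1.19-fold higher (1.02 to 1.39), each also higher in 4 of 4 pairs. The unadjusted p of these 3 genes was under 0.05, but no member passed the correction over all genes, Lgals9 missing it at an adjusted p of 0.0509 (edgeR). Leaving out some single pairs took the unadjusted p of Cd86 and of Cd274 above 0.05, but not that of Lgals9. Cd80, Havcr2, Vsir and Lag3 passed no threshold, and Pdcd1lg2 was too low to test.

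Library totals ran from 21287816 to 23703216 counts, so 3 counts, the most that a count of 0 allows, were 0.124 to 0.147 CPM (counts scaled to library size), a limit that covers counting error only. The share of mitochondrially encoded counts was 2.32% to 2.41% in the controls, 4.85% and 5.59% in IgG 1 and IgG 3, and 2.21% and 1.97% in IgG 2 and IgG 4. Of 10 microglial markers all were detected, with a summed level of 5520 to 5880 CPM in the controls and 5820 to 6980 CPM with IgG. Of these Aif1 and Fcrls rose, by 0.69 and 0.83 in log2 (edgeR adjusted p = 0.0331 and 0.0329), and P2ry12 and Tmem119 had means of 6.98 and 5.09 CPM in the controls. In a bulk library, fewer cells of a type and less RNA per cell cannot be told apart.

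The promoters of Lgals9 and Cd274 are shown because Lgals9 met the study's criterion and Cd274 is the ligand best known as an interferon target. Both windows run from 250 bases before the RefSeq start site to 25 bases into the transcript, 5′ to 3′ on the gene's strand, build GRCm38.p6. Capitals mark matches to the interferon-stimulated response element GAAANNGAAA on either strand. The Lgals9 window lies at chr11:78984900-78985174 on the minus strand and the Cd274 window at chr19:29367188-29367462 on the plus strand.
Lgals9: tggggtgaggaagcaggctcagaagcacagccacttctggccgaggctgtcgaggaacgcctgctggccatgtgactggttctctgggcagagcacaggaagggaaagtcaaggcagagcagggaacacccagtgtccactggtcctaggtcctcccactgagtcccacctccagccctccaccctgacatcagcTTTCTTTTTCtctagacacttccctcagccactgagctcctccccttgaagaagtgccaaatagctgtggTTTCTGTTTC
Cd274: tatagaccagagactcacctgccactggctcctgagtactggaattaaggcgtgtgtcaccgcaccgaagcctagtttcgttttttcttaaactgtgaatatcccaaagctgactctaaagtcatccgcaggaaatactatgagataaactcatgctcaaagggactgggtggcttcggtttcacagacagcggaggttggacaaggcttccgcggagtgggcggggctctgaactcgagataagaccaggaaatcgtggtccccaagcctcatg

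Lgals9 held 2 matches, which begin 55 bases before the start site and at base 16 of the transcript and read GAAAAAGAAA and GAAACAGAAA on the other strand. This motif was present in 1131 of 32851 promoter windows of 300 bases (3.44%). The other motif searched, the gamma-activated sequence TTCNNNGAA, was in 2726 of them (8.30%). Promoter sequences were found for 6 of the 8 members, and the windows of Cd274, Pdcd1lg2, Cd80, Havcr2 and Vsir held neither motif, which says only that these letters are not in these 300 bases.

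Levels were first compared between genes per length, as CPM per kilobase of annotated exon. In the controls Vsir was highest at 72.2, followed by Lgals9 at 61.4, Havcr2 at 19.6, Cd274 at 10.5, Cd86 at 6.57, Lag3 at 3.35, Cd80 at 0.613 and Pdcd1lg2 at 0.0873 (means, n = 4). No neighbours in this order had overlapping ranges. With IgG the first places were exchanged, with Lgals9 at 93.2 (range 71.2 to 111) and Vsir at 68.8 (67.7 to 70.7). The ratio of Lgals9 to Vsir within a library was 0.984, 0.848, 0.885 and 0.691 in control 1 to 4 and 1.63, 1.17, 1.63 and 1.01 in IgG 1 to 4. It lay below 1 in every control library and above 1 in every IgG library, the last of these by a narrow margin. Which gene stands above depends on the exon lengths used, since the lengths of the transcripts these cells make are not known. The rest of the order was the same with IgG, where the range of Cd86 (6.64 to 12.4) overlapped that of Cd274 (9.05 to 16.5), although Cd274 stood above Cd86 in each IgG library.

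**Figure D1:**
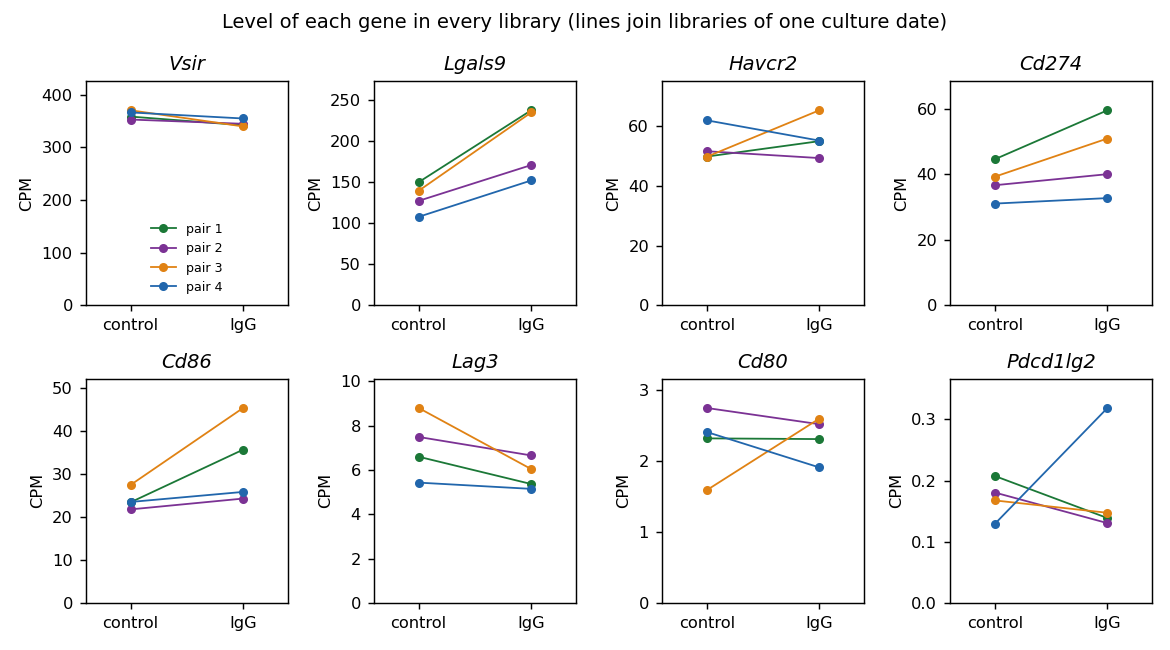
Level of the 8 genes in each library, in CPM on a linear axis from 0. Control is at the left and IgG at the right of each panel, with a line joining the libraries of one date. The lines of Lgals9, Cd86 and Cd274 all go up, those of Lag3 and Vsir all go down, and those of Havcr2, Cd80 and Pdcd1lg2 go both ways.

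Changes were tested on 17537 genes by quasi-likelihood in edgeR, with the pair as a block and Benjamini-Hochberg adjustment over all of them. At an adjusted p under 0.05 there were 69 higher genes (0.393% of those tested) and no lower gene (0%), and no member was among them. The study's criterion, an unadjusted p under 0.01 with a log2 fold change beyond 0.5 in size, took 260 genes higher (1.48%) and 60 lower (0.342%), and Lgals9 was the 1 of 7 tested members that met it. At an unadjusted p under 0.05 alone 3 members were higher, against 6.35% of all genes, and none was lower, against 3.85%. The same 3 members were higher in all 4 pairs, as were 10.4% of all genes, and 2 members were lower in all 4 pairs, as were 8.47%. The median log2 fold change of the 7 members was 0.08, and that of all genes was −0.01.

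Among the ligands, Cd274 (ENSMUSG00000016496, chr19:29367455-29388095, plus strand, mm10) encodes PD-L1, the ligand of PD-1. Its level was 44.7, 36.7, 39.3 and 31.1 CPM in control 1 to 4 and 59.6, 40.1, 51.0 and 32.8 CPM in IgG 1 to 4. Each IgG library was above its own control, but the groups overlapped, since control 1 lay above IgG 2 and IgG 4. The means were 38.0 ± 5.64 and 45.9 ± 11.9 CPM (SD, n = 4), and the log2 fold change was 0.25 ± 0.10 (SE, edgeR unadjusted p = 0.0352, adjusted p = 0.467). Without the block the unadjusted p was 0.163. The changes within pairs, in log2, were 0.42 and 0.37 in pairs 1 and 3 and 0.13 and 0.08 in pairs 2 and 4, so the larger ones were in the pairs whose IgG library had the higher mitochondrial share. Without pairs 1 and 3 the log2 fold change was 0.10. The part of the mitochondrial share in the result was not tested.

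Pdcd1lg2 (ENSMUSG00000016498, chr19:29410919-29471161, plus strand) encodes PD-L2, the other ligand of PD-1, and starts 22824 bases downstream of Cd274. It had 5, 4, 4 and 3 counts in the controls and 3, 3, 3 and 7 counts with IgG, 16 in each group. At this depth neither a level well above the limit of 3 counts nor a difference was detectable, and the gene did not pass the filter on low counts. The genomic neighbours of one another thus differed greatly in level, with Cd274 at 10.5 and Pdcd1lg2 at 0.0873 CPM per kilobase in the controls.

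Cd86 (ENSMUSG00000022901, chr16:36603869-36666081, minus strand) encodes a ligand of CD28 and CTLA-4 that antigen-presenting cells carry at rest and raise on activation. It was at 23.4, 21.8, 27.5 and 23.5 CPM in control 1 to 4 and at 35.7, 24.3, 45.4 and 25.9 CPM in IgG 1 to 4. IgG 1 and IgG 3 stood above all controls, whereas IgG 2 and IgG 4 lay within the control range. The means were 24.1 ± 2.42 and 32.8 ± 9.79 CPM (SD, n = 4), with a log2 fold change of 0.41 ± 0.13 (SE, edgeR unadjusted p = 0.0124, adjusted p = 0.367). Within pairs the log2 change was 0.61 and 0.72 in pairs 1 and 3 but 0.16 and 0.14 in pairs 2 and 4. Without pairs 1 and 3 the log2 fold change was 0.15, and the part of the mitochondrial share was again not tested.

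Cd80 (ENSMUSG00000075122, chr16:38455561-38496335, plus strand) encodes the other B7 ligand of CD28 and CTLA-4, usually the more inducible of the pair. It was low, at 2.32, 2.75, 1.59 and 2.41 CPM in the controls and 2.31, 2.52, 2.60 and 1.91 CPM with IgG. The groups overlapped fully, and control 3 was the lowest library of all. The log2 fold change was 0.05 ± 0.22 (SE, edgeR adjusted p = 0.941) with an interval of −0.46 to 0.57, which covers fold changes of 0.726 to 1.48. The sign rests on pair 3, without which the value was −0.15, and it also turned with scaling by library totals (−0.05) and with a correction for GC content and length (−0.02). Per length, Cd86 was 8.01 to 17.5 times as high as Cd80 in the control libraries and 9.75 to 17.7 times as high in the IgG libraries.

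Lgals9 (ENSMUSG00000001123, chr11:78962974-78984946, minus strand) encodes galectin-9, a tandem-repeat lectin that binds TIM-3 and other glycoproteins and is induced by interferons in many cells. It was at 150.2, 127, 140 and 108 CPM in control 1 to 4 and at 238, 171, 235 and 152 CPM in IgG 1 to 4. All IgG libraries lay above all control libraries, though IgG 4 and control 1 were close, and such separation was found for 456 of the genes tested (2.60%), with 1.57% separated the other way. The means were 131 ± 18.2 and 199 ± 44.0 CPM (SD, n = 4). The log2 fold change was 0.59 ± 0.09 (SE, edgeR unadjusted p = 0.00022, adjusted p = 0.0509), which met the study's criterion and just missed an adjusted p under 0.05. The study listed this gene, without a direction, under terms for tumor necrosis factor production and chemotaxis. That list was drawn from these same libraries and is not independent evidence.

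Within pairs 1 to 4 the log2 change of Lgals9 was 0.66, 0.43, 0.75 and 0.50, so pairs 1 and 3 were again the larger. The smallest of these, in pair 2, was slightly above the largest change of Cd274, and whether the genes differ in their spread over pairs was not tested. Without pairs 1 and 3 the log2 fold change was 0.46, which is under the study's criterion, and with scaling by library totals it was 0.48. Without the block it was 0.60 (edgeR unadjusted p = 0.00425, adjusted p = 0.692). In that fit no gene passed an adjusted p under 0.05 in the higher direction (0%), 0.582% of the genes were higher by the study's criterion, with Lgals9 among them, and 4.83% were higher at an unadjusted p under 0.05, with Lgals9 and Cd86 among them. DESeq2 and the likelihood ratio test of edgeR, both with the block, placed Lgals9 past the correction, with adjusted p of 0.000417 and 9.29e-05. In these fits 233 and 327 of 17537 genes passed it.

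**Figure D2:**
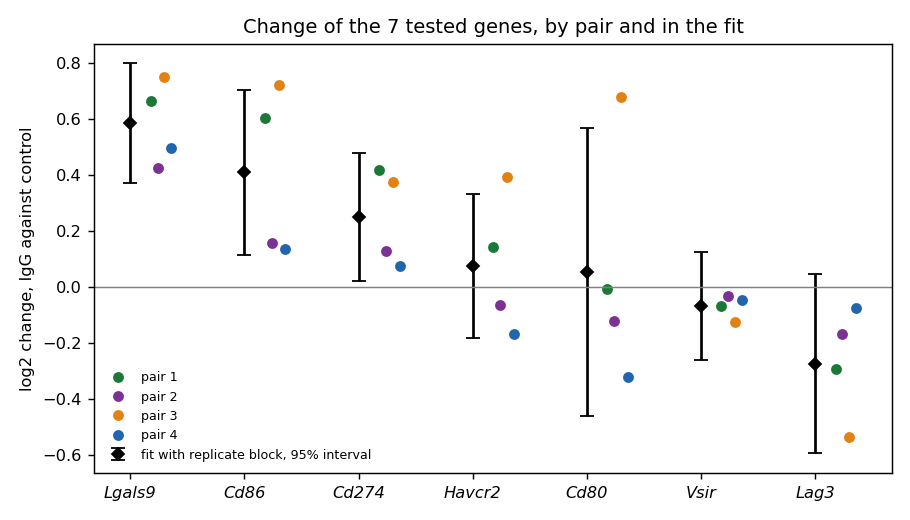
Log2 change of the 7 tested genes, IgG against control, with diamonds and bars for the fitted value and its 95% interval and coloured points for the change within each pair. The interval lies above 0 for Lgals9 (0.37 to 0.80), Cd86 (0.11 to 0.70) and Cd274 (0.02 to 0.48) and spans 0 for the other 4 genes.

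Among the receptors, Havcr2 (ENSMUSG00000020399, chr11:46454935-46481255, plus strand) encodes TIM-3, which microglia carry and which galectin-9 binds. Its level was 49.9, 51.6, 49.8 and 62.0 CPM in control 1 to 4 and 55.0, 49.4, 65.4 and 55.2 CPM in IgG 1 to 4. Control 4 stood apart from the other controls, IgG 3 was the highest library, and the groups overlapped. The log2 fold change was 0.08 ± 0.11 (SE, edgeR adjusted p = 0.817), with an interval of −0.18 to 0.33, and it was −0.03 without pair 3. The ratio of galectin-9 transcript to that of its receptor, per length and within a library, was 3.84, 3.14, 3.57 and 2.21 in the controls and 5.51, 4.41, 4.58 and 3.51 with IgG. The ratio was higher in the IgG library of each pair, and the groups overlapped only in that IgG 4 lay below control 1 and control 3.

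Vsir (ENSMUSG00000020101, chr10:60346851-60372684, plus strand) encodes VISTA, a B7-like molecule of myeloid cells that can act as ligand and as receptor. It was at 358, 353, 370.2 and 366 CPM in the controls and at 342, 345, 340 and 355 CPM with IgG. The level was lower with IgG in 4 of 4 pairs, and the groups overlapped in 1 place, IgG 4 lying above control 2. The means of 362 ± 7.92 and 345 ± 6.67 CPM (SD, n = 4) were the steadiest among the members, with a SD over the 8 libraries of 0.05 in log2 against 0.40 for Lgals9. The log2 fold change of −0.07 ± 0.08 (SE, edgeR unadjusted p = 0.439, adjusted p = 0.773) passed no threshold, and its interval of −0.26 to 0.12 covers fold changes of 0.835 to 1.09.

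Lag3 (ENSMUSG00000030124, chr6:124904361-124911705, minus strand) encodes LAG-3, a receptor related to CD4 that is best known on T cells. It was at 6.59, 7.49, 8.79 and 5.43 CPM in control 1 to 4 and at 5.36, 6.65, 6.04 and 5.14 CPM in IgG 1 to 4. Each IgG library was below its own control, but control 1 and control 4 lay below IgG 2. The means were 7.08 ± 1.42 and 5.80 ± 0.684 CPM (SD, n = 4), and the log2 fold change was −0.27 ± 0.14 (SE, edgeR unadjusted p = 0.085, adjusted p = 0.539). It was −0.13 without pairs 1 and 3 and −0.15 after the correction for GC content and length.

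Because LAG-3, and also the receptors that meet these ligands, are lymphocyte molecules in other tissues, markers of other cells were read in the same libraries. Of 10 T cell markers, Cd3d, Cd3e, Cd3g, Trbc1, Trbc2 and Cd8a were at 0 in all 8 libraries, and the summed level was 7.17 to 9.37 CPM in the controls and 6.33 to 10.7 CPM with IgG, most of it from Cd247. Of 7 natural killer cell markers, Ncr1, Klrd1, Gzma and Gzmb were at 0, with sums of 1.13 to 2.84 and 1.30 to 2.13 CPM. Most of this was Klrb1c, at 1.90 and 1.64 CPM, with log2 changes of 0.67, −1.03, 0.68 and −0.71 in pairs 1 to 4. The 6 B cell markers summed to 0.796 to 1.58 and 0.933 to 2.09 CPM, mostly Ighm, the only 1 tested (log2 fold change 0.29, edgeR adjusted p = 0.715). Cd79b, with 21 counts over all libraries, was higher with IgG in 4 of 4 pairs with no overlap but too low to test. Pax5, with 5 counts, had a lower mean with IgG. Of all genes tested, 10.4% were higher in all 4 pairs and 2.60% had every IgG library above every control. None of the 8 dendritic cell markers was at 0 throughout, and the sums were 6.88 to 9.50 and 5.35 to 9.48 CPM. Most of these counts were of Batf3 (764 over all libraries) and Zbtb46 (478), whereas Flt3 had 4 and Ccr7 had 1. Xcr1 was at 0.30 ± 0.12 and 0.60 ± 0.11 CPM (SD, n = 4), higher with IgG in 4 of 4 pairs with no overlap (log2 fold change 1.00, edgeR unadjusted p = 0.0216, adjusted p = 0.421). Batf3 and Zbtb46 went the other way, at −0.37 and −0.17, and the median of the 3 tested dendritic cell markers was −0.17. The log2 change of the dendritic cell sum was −0.07, 0.16, −0.83 and −0.24 within pairs 1 to 4. The other T cell markers with counts were Trac, with 4 over all 8 libraries, Cd6, with 6, and Cd5, with 100, whereas Cd247, the CD3 zeta chain, had 1420. The part of such cells in the level of Lag3 was not tested.

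Markers of other brain cells were also counted. The 6 markers of border-associated macrophages, none of them at 0, summed to 57.4 to 82.5 CPM in the controls and 52.3 to 108 CPM with IgG, mostly Mrc1. Of the 4 tested, 3 had a log2 fold change above 0, and the median was 0.17. Cbr2 met the study's criterion, at 0.59 and 1.31 CPM with overlapping groups (log2 fold change 1.23, edgeR adjusted p = 0.22). F13a1 was lower in 4 of 4 pairs (−0.31), and Lyve1 and Cd163, too low to test, had lower means with IgG. The 10 oligodendrocyte markers summed to 1210 to 1850 and 1040 to 1740 CPM, the 8 astrocyte markers to 171 to 196 and 149 to 191 CPM, the 7 neuronal markers to 24.4 to 35.5 and 15.7 to 32.6 CPM, and the 6 fibroblast markers to 3.52 to 7.01 and 4.85 to 6.43 CPM. No list of these had a marker at 0 in all libraries, and the groups overlapped in each sum. Within pairs 1 to 4, however, the log2 change of the sum was −0.22, −0.09, −0.25 and −0.04 for oligodendrocyte markers, −0.20, −0.06, −0.15 and −0.02 for astrocyte markers and −0.64, −0.12, −0.08 and −0.12 for neuronal markers, lower with IgG in all 4 pairs. For microglial markers it was 0.29, 0.08, 0.25 and 0.12, higher in all 4. For markers of border-associated macrophages it was 0.44, 0.10, 0.37 and −0.14, and for fibroblast markers −0.53, 0.37, 0.87 and 0.21. For microglial, border-associated macrophage, oligodendrocyte and astrocyte markers the larger shifts were in pairs 1 and 3, as for Cd274, Cd86 and Lgals9. The part of these cells in the members' levels was not tested.

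Of 14 binding partners of the members, Pdcd1 (PD-1) had 7 counts and Ctla4 2 counts over all 8 libraries, and Fgl1 and Clec4g had none. Cd28 was counted at 22.1 ± 6.02 CPM in the controls and 24.1 ± 11.8 CPM with IgG (log2 fold change 0.04). The 3 most abundant partners were Lgals3, a galectin that binds LAG-3, at 1308 ± 79.5 and 1178 ± 259 CPM, P4hb, a protein disulfide isomerase that binds galectin-9, at 431 ± 6.72 and 492 ± 37.6 CPM, and the hyaluronan receptor Cd44 at 202 ± 11.9 and 225 ± 63.8 CPM (SD, n = 4). Their log2 fold changes were −0.17, 0.19 and 0.12, and none had an unadjusted p under 0.05. Of 10 partners tested none met the study's criterion, and the median log2 fold change was 0.04. Igsf11, a partner of VISTA, was lower in 4 of 4 pairs (15.1 ± 1.94 and 12.2 ± 2.53 CPM, log2 fold change −0.33, edgeR unadjusted p = 0.0191, adjusted p = 0.406).

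Of 8 further members of the B7 and CD28 families, 2 were high enough to test. Icosl, the ligand of ICOS, was at 9.86 ± 1.71 CPM in the controls and 13.6 ± 1.32 CPM with IgG, higher in 4 of 4 pairs with no overlap of the groups (log2 fold change 0.47, edgeR unadjusted p = 0.00671, adjusted p = 0.301). It missed the study's criterion by its size. Of all genes tested, 10.4% were likewise higher in all 4 pairs and 2.60% had every IgG library above every control. Cd276 (B7-H3) was at 19.2 ± 2.99 and 17.8 ± 2.42 CPM (log2 fold change −0.10).

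Of 7 costimulatory genes of the TNF family 4 were tested, none had an unadjusted p under 0.05, and the median log2 fold change was 0.25. The 3 highest were Tnfrsf14, the receptor HVEM, at 10.5 and 11.3 CPM (0.10), Tnfsf9, the ligand of 4-1BB, at 2.96 and 3.10 CPM (−0.01), and Cd40, the receptor through which T cells license presenting cells, at 2.15 and 2.82 CPM (0.39, edgeR unadjusted p = 0.0663, adjusted p = 0.513).

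Of 20 genes of other inhibitory axes 14 were tested, none met the study's criterion, and the median was −0.01, equal to that of all genes at this precision. The 3 highest were Sirpa, the receptor for CD47, at 2059 ± 137 and 2147 ± 161 CPM (log2 fold change 0.06), the inhibitory receptor Lilrb4a at 675 ± 120 and 642 ± 107 CPM (−0.07), and Cd47, the signal against phagocytosis, at 134 ± 23.4 and 177 ± 54.3 CPM. Cd47 was higher in 4 of 4 pairs with a log2 fold change of 0.36 (edgeR unadjusted p = 0.00957, adjusted p = 0.348), and with Cd48 and Timd4 it was 1 of 3 genes of the list that were higher at an unadjusted p under 0.05. Ido1 was not counted in any library.

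Inducers and stabilisers of PD-L1 all passed the filter, and 17 of 17 were tested. Irf7, the interferon regulatory factor that amplifies type I interferon, was at 123 ± 54.6 CPM in the controls and 264 ± 108 CPM with IgG, and it rose by 1.13 in log2 (SE 0.09, edgeR adjusted p = 0.00593, and 0.692 without the block). Stat2, a component of the factor that type I interferon activates, had a log2 fold change of 0.45 at 172 ± 48.4 and 237 ± 77.0 CPM (edgeR adjusted p = 0.11). Counted over the list, 1 gene was higher at an adjusted p under 0.05, none was lower by it or by the study's criterion, and the median log2 fold change was 0.09. Irf1, the factor through which interferon-gamma acts on the Cd274 promoter, was at 58.5 and 55.3 CPM (−0.07), and Cmtm6, which keeps PD-L1 protein at the surface, was at 124 and 127 CPM (0.03). Irf7 was chosen with its result known and is given for context. The sheddases Adam10 and Adam17, which release the ectodomains of several such molecules, had log2 fold changes of 0.04 and 0.07, and neither had an unadjusted p under 0.05.

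**Figure D3:**
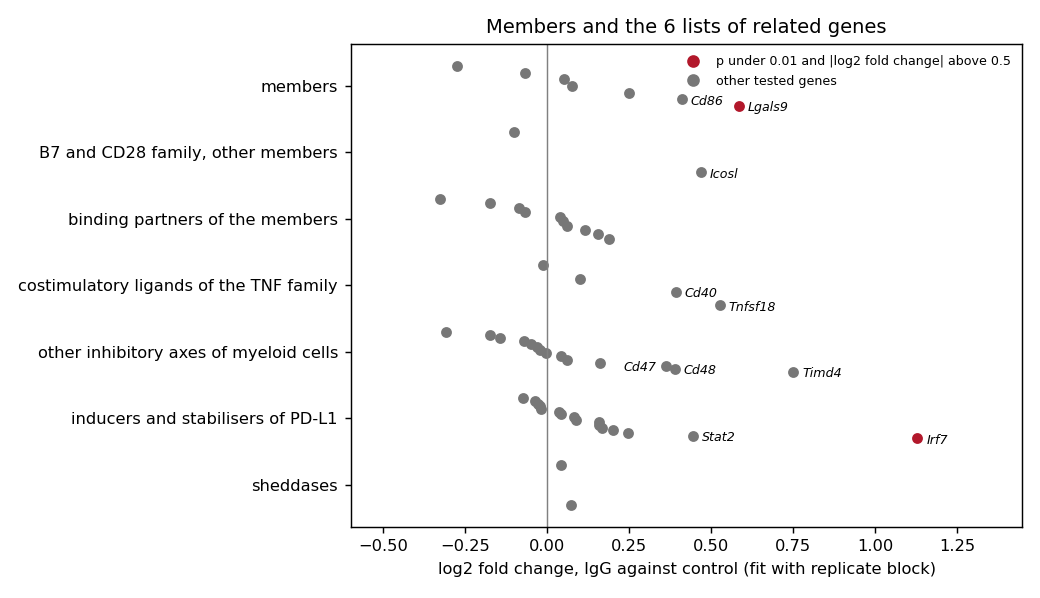
Fitted log2 fold change of the tested members and of the tested genes reported here from 6 lists of related genes, with red points for genes that met the study's criterion and names for values above 0.35. Lgals9 and Irf7 are red, and no gene is red on the left of 0.

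The annotated neighbours of the members were read to see whether reads could be shared. Cd274 overlaps the antisense gene AC119228.1 over 511 exon bases, and that gene was at 15.8 ± 1.49 CPM in the controls and 14.8 ± 3.75 CPM with IgG (log2 fold change −0.13). Plgrkt, which starts 65 bases away on the other strand, was at 49.7 ± 1.51 and 41.7 ± 11.5 CPM (−0.29, edgeR adjusted p = 0.552). The use of strand in counting is not given in the sources used here. Whether reads in these 511 of the 3622 exon bases of Cd274 were told apart from those of its antisense gene is therefore not known. Pdcd1lg2 lies over the antisense gene A930007I19Rik with no shared exon base, which was at 2.17 and 1.51 CPM (−0.56, unadjusted p = 0.039, edgeR adjusted p = 0.474).

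Lgals9 shares no exon base with another gene, and its next gene Nos2, the inducible nitric oxide synthase 2720 bases away, had 1 to 19 counts in a library. Its other neighbour Ksr1 had a log2 fold change of −0.07. Lag3 lies 16140 bases from Cd4, its relative in sequence, which was at 0.497 ± 0.232 and 0.953 ± 0.248 CPM, higher in 4 of 4 pairs (log2 fold change 0.97, edgeR unadjusted p = 0.017, adjusted p = 0.397), while Lag3 was lower in the same 4 pairs. Ptms on its other side had a log2 fold change of −0.22. Vsir overlaps Cdh23 on the other strand without a shared exon base, and Cdh23 had 12 to 35 counts in a library. Of the other next protein-coding genes, Psap beside Vsir had a log2 fold change of 0.07 and Med7 beside Havcr2 one of 0.07. Beside Cd80, Adprh was at −0.10 and Timmdc1 at −0.16, and Ric1 beside Pdcd1lg2 was at 0.23. Casr and Ildr1 beside Cd86, with Gm17455 and Gm12169, were too low to test.

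For each tested member the genes with the most similar course over the 8 libraries were found by the root mean square difference of centred log2 CPM, among 15668 genes. The genes nearest to Lgals9 were B2m, the light chain of MHC class I, at a difference of 0.06, Tmem8 at 0.07 and Il4ra, the interleukin-4 receptor chain, at 0.07, against a SD of 0.40 for Lgals9 itself. Their log2 fold changes were 0.47, 0.54 and 0.51. Cd274 was nearest to Snx2, Pcgf5 and Camk2d (0.06 to 0.07), and Cd86 to AC133509.1, Ube2n-ps1 and Gm14176 (0.08 to 0.09). Lag3 was nearest to Npl, Plekhg2 and Gm44822 (0.08 to 0.10), Havcr2 to Cad, Idh3a and Hif1an (0.05 to 0.06), Cd80 to Zfp418, Zbtb25 and Gfra1 (0.08 to 0.11) and Vsir to Gid4, Klhl22 and Slc4a2 (0.02 to 0.03). The steadier the gene, the smaller such a difference becomes for any match, so the values are not comparable between members.

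**Figure D4:**
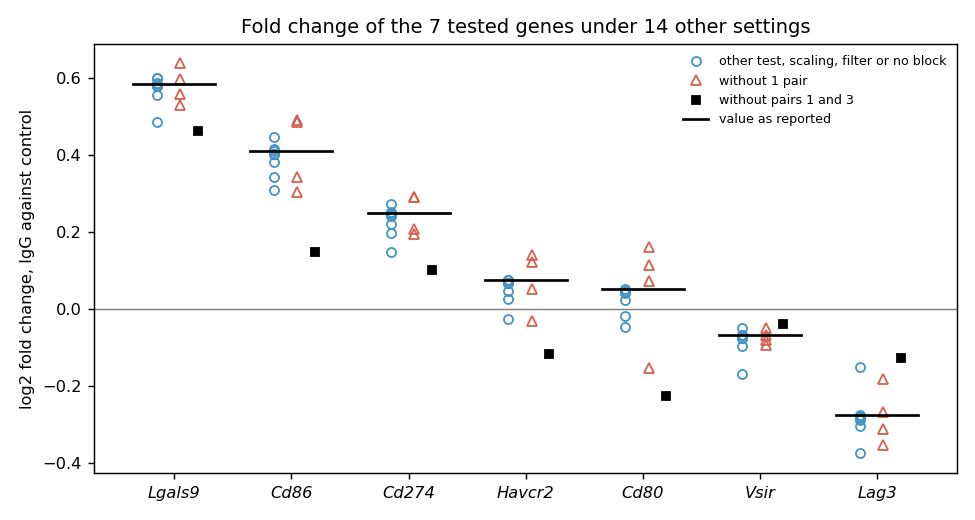
Log2 fold change of the 7 tested genes as reported (black line) and under 14 other settings, with circles for other tests, scalings or filters, triangles for leaving out 1 pair and squares for leaving out pairs 1 and 3. Lgals9, Cd86 and Cd274 stay above 0, and Lag3 and Vsir below 0, throughout, whereas Havcr2 and Cd80 cross it.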

How the data were processed

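RNA of 8 libraries was enriched with oligo(dT) beads and prepared with the NEBNext Ultra kit. The authors removed reads of low quality, aligned the rest to mm10 and deposited whole-number counts per Ensembl gene. The submitters' processing notes name HISAT2 2.2.1, SAMtools 1.12, Picard 2.26.3, featureCounts, R 4.1.2 and edgeR 3.36.0, with build GRCm38. The annotation used for counting, the use of strand and the treatment of reads with several alignments are not given in the sources used here.

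Totals and the depth they give stand with the results. No libraries of a group agreed within sampling noise (chi-square per degree of freedom of at least 5). Symbols, positions and exon lengths came from GENCODE M21, in which 55144 of 55385 identifiers were found. Counts were scaled with TMM, filtered with filterByExpr to 17537 genes and fitted by quasi-likelihood in edgeR 4.0.16 (R 4.3.3), with group and replicate number as terms and two-sided p-values adjusted by Benjamini-Hochberg. The study's methods name no covariate. The block was used because the labels give same-numbered libraries one date. Deviations from the group means correlated at 0.28 to 0.47 in same-numbered libraries (r over 11928 genes) and at −0.38 to 0.28 in others. CPM used TMM-scaled totals, and the change within a pair is the IgG minus the control value of log2 CPM with a prior count of 2. Intervals are at 95%.

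The members and the gene lists were chosen with earlier results of these data known. Beyond the members, the rule named genes of 6 related lists that passed an adjusted p under 0.05 or the study's criterion, the 3 most abundant tested genes of each list, annotated neighbours, and the 3 genes nearest to each member among those with a mean CPM of at least 1. Icosl, Igsf11, Stat2, Irf1, Cmtm6, Cd48, Timd4, Cd28 and the cell type markers, with the genes given at or near 0 counts, were added after their values were seen. Results on 2 other genes of the lists are not reported here. Alternatives were no block, DESeq2 1.42.0, limma-voom (limma 3.58.1), the likelihood ratio test, scaling by DESeq2 size factors or library totals, no filter or a stricter one, removal of GC and length trends, leaving out each pair and, added after seeing the data, leaving out pairs 1 and 3 together. The procedure was tested on simulated data.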

Additional observations from a re-analysis of the deposited data

Results flagged for a closer look

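Havcr2 in control 4 was at 62.0 CPM, whereas the other 3 controls lay between 49.8 and 51.6 CPM. The gap to the nearest control was 0.849 of the group's whole range, above Dixon's 95% critical value for 4 samples. It was the 1 such value among 21 sets of 4 values examined, and chance alone gives about 1 in 20. These sets were the levels of a member in a group of libraries or its changes within pairs.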

How the results depend on the processing

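Each result was recomputed under 14 alternatives. The log2 fold changes of Cd274 (0.10 to 0.29), Cd86 (0.15 to 0.49), Lgals9 (0.46 to 0.64), Vsir (−0.17 to −0.04) and Lag3 (−0.37 to −0.13) kept their sign in all 14, and of these only Lgals9 crossed the threshold of the adjusted p. Its adjusted p ran from 9.29e-05 to 0.692, and its log2 fold change with an adjusted p under 0.05 was 0.58 with DESeq2, 0.59 with the likelihood ratio test, 0.59 with limma-voom, 0.58 with no filter, 0.60 with GC and length trends removed and 0.60 without replicate 4 (0.53 to 0.64 without 1 replicate). So 1 member passed under each of those 6, against 0 as reported (0 to 1 without 1 replicate). In the same order, 233, 327 and 88 of 17537 genes passed, then 376 of 31368, 193 of 17503 and 182 of 17554. Members past the study's criterion were 0, against 1, with library totals alone and without replicates 1 and 3. Cd80 turned negative with library totals (−0.0461), with GC and length trends removed (−0.0184) and without replicates 1 and 3 (−0.22), and ran from −0.15 to 0.16 without 1 replicate. Havcr2 turned negative with library totals (−0.0248) and without replicates 1 and 3 (−0.12), and ran from −0.0294 to 0.14 without 1 replicate. Library totals moved the median of all genes by −0.10. Pdcd1lg2 did not pass the filter and has no value here.

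Genes past an adjusted p under 0.05 numbered 69 with the replicate block and 0 without it, where edgeR gave 847 higher genes at an unadjusted p under 0.05. They numbered 233 with DESeq2, 327 with the likelihood ratio test, 37 with library totals, 376 with no filter, 193 with GC and length trends removed, 190 without replicates 1 and 3, and 0 (without replicate 2) to 182 (without replicate 4) when 1 replicate was left out. Genes past the study's criterion numbered 320, and 148 without the block, 528 with the likelihood ratio test, 648 with no filter and 215 to 762 without 1 replicate. Taking the replicate block out changed no member's call by the adjusted p or the study's criterion, and it moved the unadjusted p of Cd274 from 0.0352 to 0.163. With the block, the unadjusted edgeR p of Cd274 was 0.174, 0.0603 and 0.147 without replicates 1, 2 and 3. It was 0.1325 with library totals. For Cd86 the unadjusted edgeR p was 0.0555 without replicate 1 and 0.0677 without replicate 3. The cause of these shifts was not tested. Depth limits Pdcd1lg2, with 3 to 7 counts in a library, and Cd80, at 38 to 61 counts, has the widest interval of the tested members.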
